A study of Arabidopsis thaliana with 3 samples.

Results

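The regions described here are the intergenic ChIP-seq peaks of the Arabidopsis regulator AtSDR4L that were called in replicate 2 and not in replicate 1. They are the distinct nuclear intervals of the replicate 2 list that share no base with any replicate 1 interval and whose summit, the base of highest enrichment, lies outside every protein-coding gene span. There were 411 of them, among 3423 nuclear peaks of replicate 2 and 13234 nuclear peaks of both lists. The induced samples were 2 biological replicates of AtSDR4L-HA whole seedlings on medium with 1 µM β-estradiol, which switches the HA-tagged transgene on. A single uninduced AtSDR4L-HA sample on medium without β-estradiol, precipitated with the same HA antibody, was the control. All were harvested 4 days after imbibition, so every group carried the transgene and only the inducer differed. The labels do not state the genetic background, the promoter or how many independent lines were used.

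AtSDR4L belongs to a small plant family named after a rice seed dormancy gene, and it acts in the passage from seed to seedling. ChIP-seq pulls down DNA crosslinked to a tagged protein, and a peak is a stretch with more fragments than a control pulled down the same way. DNA next to a gene holds its promoter on one side and its terminator on the other. The gene table used here has no strand, so the side was not resolved. Among the neighbours of these peaks were genes of jasmonate synthesis and of immune signalling. Jasmonates are lipid hormones made after wounding by lipoxygenase, allene oxide synthase and allene oxide cyclase, and sensed through JAZ repressors. Immune signalling in plants starts from receptor kinases at the cell surface and from intracellular resistance proteins.

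Other sets of peaks served for comparison. The genic peaks of replicate 2 only numbered 1198, the intergenic peaks of replicate 2 that overlapped replicate 1 numbered 1085, and the intergenic peaks of replicate 1 only numbered 4433. Both lists were called against the same control library. Fold enrichment is the authors' value at the summit over that control. Peaks of 1 library are not replicates, so no difference between sets was tested. The 95% intervals on shares and medians are exact, treat peaks as independent and cover counting only.

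The depth behind each peak was recovered from the deposited values. The caller's fold and p-value at a summit were solved together for the number of fragments covering the summit, called the pileup, and for the control background the caller set against it. The pileup came out whole to within 0.05 in 99.8% of the 3415 solved replicate 2 peaks and in 99.9% of the 9806 solved replicate 1 peaks. The lowest background was 46.7 fragments in replicate 2 and 43.2 in replicate 1. Values within 1.05 times it made up 29.1% of solved replicate 2 peaks and 46.3% of solved replicate 1 peaks. A lowest value repeated at so many peaks reads as a floor in the caller's background. A lower local control at those peaks could not be seen. At 161 shared summits lying within 5 bp of each other, the replicate 1 background was 0.924 times that of replicate 2, the same ratio as between the lowest values. Both lists were called against the same control library, so this match was built in and is no second measurement. By the ratio of backgrounds the coverage of both libraries was close, while replicate 1 gave 9811 nuclear peaks and replicate 2 gave 3423.

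The 411 peaks were mostly modest. Their fold had a median of 1.66 (95% interval 1.62 to 1.72) and ran from 1.12 to 4.45. Only 91 (22.1%) had a fold of 2 or more, against 454 of the 1085 shared intergenic peaks (41.8%). Genic peaks of replicate 2 only were more modest still, with a median fold of 1.59 and 176 of 1198 (14.7%) at 2 or more. The fragments behind the 411 peaks were more numerous than in the other intergenic sets. Their median summit pileup was 167 fragments (153 to 201), against 105 (104 to 108) in shared intergenic peaks and 98 (97 to 99) in intergenic peaks of replicate 1 only. In genic peaks of replicate 2 only it was 144 (136 to 153), so a high pileup was not particular to the 411. The median −log10 q of the 411 was 7.68 (6.53 to 8.62), against 7.37 (6.77 to 7.79) in shared intergenic peaks.

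The uninduced control was itself high at these places. The median control background was 97.9 fragments (88.0 to 106.7), against 83.4 (79.2 to 87.6) in genic peaks of replicate 2 only, 49.2 (48.7 to 50.2) in shared intergenic peaks and 43.5 (43.2 to 44.0) in intergenic peaks of replicate 1 only. It was at least 2 times the lowest value of the list in 214 of 411 (52.1%, 47.1 to 57.0). The same held for 45.0% of genic peaks of replicate 2 only, 8.79% of shared intergenic peaks and 11.7% of intergenic peaks of replicate 1 only. At 5 times the lowest value or more, the shares were 19.5%, 20.3%, 1.76% and 2.46% in the same order of sets. The medians of 49.2 and 43.5 fragments were 1.05 and 1.01 times the lowest value of their lists. They thus lay near the floor and do not measure how low the control was there. In their control background the intergenic peaks of replicate 2 only thus stood nearer to the genic peaks of that replicate than to either other intergenic set. Whether the control level has a part in the calls was not tested.

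**Figure D1:**
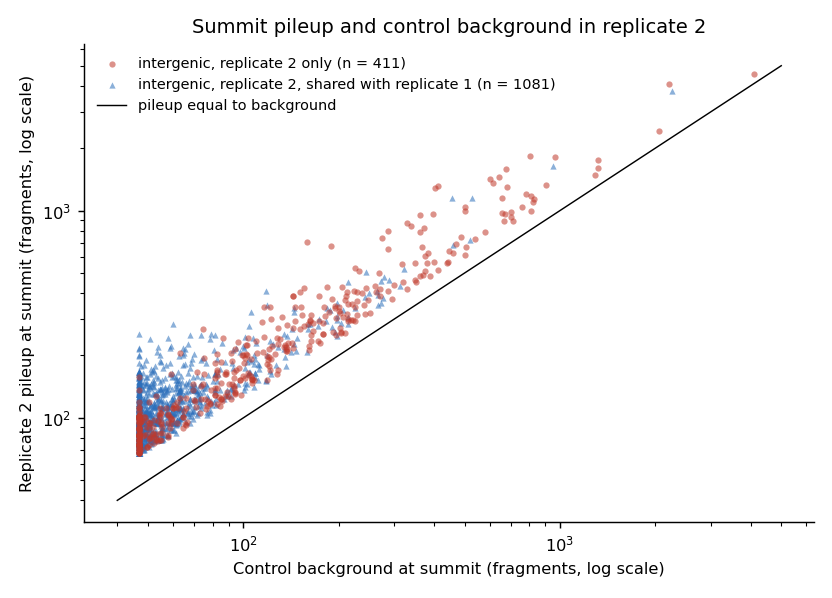
Fragments covering the summit in replicate 2 (vertical) against the control background at the same summit (horizontal), both on log scales, for 411 intergenic peaks of replicate 2 only and 1081 shared intergenic peaks of replicate 2 that could be solved. Each symbol is 1 peak, and the line marks equal values. The peaks of replicate 2 only spread to the right, with a median background of 97.9 fragments against 49.2 in the shared peaks.

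Most of the 411 summits lay very close to a coding gene. The median distance from summit to the nearest coding gene span was 135 bp (125 to 154), against 497 bp (429 to 576) in shared intergenic peaks and 269 bp (255 to 288) in intergenic peaks of replicate 1 only. Within 200 bp of a coding gene lay 263 of 411 (64.0%, 59.1 to 68.6), against 30.1% (27.4 to 33.0) and 41.1% (39.7 to 42.6) in those sets. Within 1000 bp lay 361 (87.8%, 84.3 to 90.8), against 68.5% (65.6 to 71.2) and 77.8% (76.6 to 79.0). The gene-free stretches that held the summits were short, with a median of 1276 bp (1028 to 1640), against 3094 bp (2861 to 3315) and 2274 bp (2172 to 2369). A summit within 1000 bp of 2 or more coding genes was found in 211 peaks (51.3%), against 22.9% of shared intergenic peaks and 33.5% of intergenic peaks of replicate 1 only.

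The intervals often ran into the gene beside them. Of the 411, 268 (65.2%, 60.4 to 69.8) reached into a coding gene span, against 28.7% (26.0 to 31.5) of shared intergenic peaks and 44.4% (42.9 to 45.9) of intergenic peaks of replicate 1 only. In 119 (29.0%) at least 50% of the interval lay inside coding genes, against 7.65% and 11.4%. Among the 78 with several summits, 67 (85.9%, 76.2 to 92.7) had another summit inside a coding gene, against 44 of 105 (41.9%) and 369 of 883 (41.8%). The summit with the highest q decided whether such an interval counted as intergenic. Noncoding genes and pseudogenes held 36 of the 411 summits (8.76%), against 6.73% of shared intergenic summits and 4.80% of intergenic summits of replicate 1 only. They were 12 long noncoding RNA genes, 11 genes of miscellaneous RNA, 7 transcribed pseudogenes, 3 noncoding RNA genes and 1 each of pseudogene, snoRNA and tRNA.

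**Figure D2:**
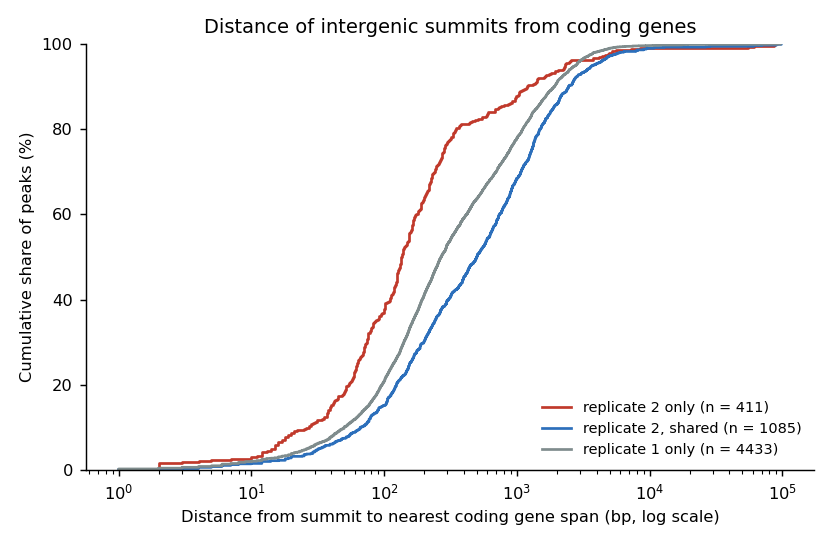
Cumulative share of peaks (vertical, percent) by distance from the summit to the nearest coding gene span (horizontal, bp on a log scale) in 3 sets of intergenic peaks. The curve of the 411 peaks of replicate 2 only rises first, with a median of 135 bp, against 497 bp in the shared set and 269 bp in the set of replicate 1 only.

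Within the set, the peaks at the lowest control background lay farther from coding genes than the rest. The 77 peaks whose background was within 1.05 times the lowest value had a median distance of 321 bp and 67.5% within 1000 bp. The 120 peaks with 1.05 to 2 times had a median distance of 129 bp, the 134 with 2 to 5 times had 131 bp, and the 80 with 5 times or more had 118 bp. In those last 2 groups 96.3% and 96.2% lay within 1000 bp of a coding gene. At the lowest background the median distance was 703 bp in shared intergenic peaks and 429 bp in intergenic peaks of replicate 1 only. The share within 1000 bp at the lowest background was 62.6% in shared intergenic peaks and 70.5% in intergenic peaks of replicate 1 only. At the lowest background the 77 peaks thus had the shortest median distance of the 3 sets, but not the highest share within 1000 bp, which they had over all peaks. At 2 to 5 times the lowest value the medians were 176 bp in shared intergenic peaks and 185 bp in intergenic peaks of replicate 1 only. As background grew in the 411 peaks, the median width grew as well, at 318, 340, 432 and 522.5 bp from the lowest to the highest group. Across the 411 peaks Spearman's rho was 0.35 between background and width, against 0.15 in shared intergenic peaks. Between background and fold rho was −0.23, against −0.24 in shared intergenic peaks. The background divides the fold, and a peak at low background needs a higher fold to be listed. The negative sign is therefore partly built in. Between background and distance rho was −0.21, against −0.18 in shared intergenic peaks. These are correlations across peaks of 1 library, which share its depth and its control.

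Wide peaks formed a distinct end of the set. A width of at least 1000 bp was reached by 53 of 411 (12.9%, 9.81 to 16.5), against 1.94% (1.20 to 2.94) of shared intergenic peaks and 7.35% (6.60 to 8.16) of intergenic peaks of replicate 1 only. Among genic peaks of replicate 2 only it was 14.7% (12.7 to 16.8). The 53 wide peaks had a median fold of 2.20, and 51 of them reached into a coding gene, which covered a median of 77.3% of the interval. The 358 narrower ones had a median fold of 1.61, and 217 of them reached into a coding gene. Spearman's rho between fold and width was 0.35 over the 411 peaks, against 0.23 in shared intergenic peaks, again across peaks and not across replicates.

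**Figure D3:**
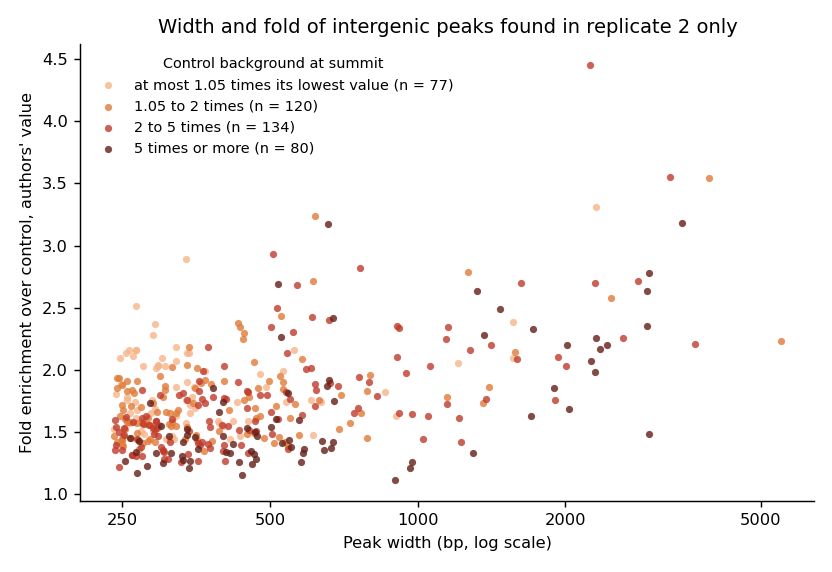
Fold enrichment at the summit (vertical, the authors' value) against peak width (horizontal, bp on a log scale) for the 411 intergenic peaks of replicate 2 only. Colours give the control background at the summit relative to its lowest value, and the 53 peaks of 1000 bp or more include the highest fold, 4.45.

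The 10 peaks of highest fold were chosen for that value, which is given as a description. First came a peak at chr1:232277-234523, with coordinates 1-based on TAIR10 here and throughout. It held 709 fragments at the summit over a background of 158, a fold of 4.45 (4.13 to 4.79, from the counting error of the pileup), beside AT1G01640 and the signal peptide peptidase gene SPPL4. Its summit lay 39 bp from AT1G01640, and 90.7% of its 2247 bp lay in coding genes. A peak of 3266 bp with its top summit between AT1G11950 and AT1G11960 had 673 fragments over 189, a fold of 3.55 (3.28 to 3.82). A peak of 3923 bp at chr5:33792-37714 beside FRB1, a gene of cell adhesion, had 267 fragments over 74.6, also a fold of 3.55 (3.14 to 4.00). Each of these 3 intervals was wider than 1000 bp and lay mostly in coding genes.

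BHLH92, a transcription factor gene of the bHLH family, lay 217 bp from a summit at chr5:17532388-17534697. That summit had 157 fragments over the lowest background of 46.7, a fold of 3.31 (2.82 to 3.87). SERK4, a coreceptor kinase of brassinosteroid and immune receptors, lay 44 bp from a summit at chr2:5746628-5747244 with 206 fragments over 62.9, a fold of 3.24 (2.81 to 3.71). Its neighbour in the same family, SERK5, had a peak of its own at chr2:5757234-5757667 with 119 fragments over 50.2, a fold of 2.34 (1.94 to 2.80). The control background at the SERK4 and SERK5 summits was 1.35 and 1.08 times its lowest value.

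Of the other 5, peaks beside AT2G34930 and between AT5G41100 and AT5G41110 rested on far more fragments. They had 1316 over 413 and 1282 over 403, with folds of 3.18 (3.01 to 3.36) and 3.17 (3.00 to 3.35). The peak with its summit between BTI3, a reticulon-like gene, and CHX18, a cation exchanger gene, had a fold of 2.93 (2.63 to 3.26). The peak with its summit between TOM1 and QQT2 had a fold of 2.82 (2.53 to 3.13). Of these intervals 28.8% and 74.7% lay inside coding genes. The last of the 5, at chr5:21449813-21450149, lay 2464 bp from its nearest coding gene, MAKR6. It had 137 fragments over 46.7, a fold of 2.89 (2.43 to 3.41). It was the only one of the 10 outside 1000 bp of a gene.

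Ranked by q in place of fold, 4 of the 10 leading peaks were the same, those beside AT2G34930, AT5G41100, AT1G01640 and AT1G11960, with −log10 q of 268, 260, 220.1 and 159. The highest −log10 q was 275, for a peak of 1895 bp beside LON2, a peroxisomal protease gene, where 4099 fragments stood over a background of 2213 and the fold was 1.85 (1.80 to 1.91). JAZ7 followed among the 5 highest, with 1833 fragments over 802 at chr2:14573197-14574562, a fold of 2.28 (2.18 to 2.39). XTH18, which encodes a xyloglucan-modifying enzyme of the cell wall, had 1580 over 678 (2.33, 2.22 to 2.45). OPCL1, LOX4 and WRKY18 were also among the 10 and are described with their pathways. The widest peak of all, at chr1:5933863-5939365, measured 5503 bp with 9 summits beside AT1G17340 and had a fold of 2.24 (1.93 to 2.58).

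Genes beside the peaks were counted where a summit lay within 1000 bp outside their span. This gave 581 coding genes, 2.12% of the 27444 in the nuclear genome, beside 361 of the peaks. A single gene lay beside 150 peaks, 2 beside 197 and 3 beside 14. Of the 581, 106 (18.2%, 15.2 to 21.6) also had a summit of a replicate 2 only peak inside their span, against 984 of the other 26863 coding genes (3.66%). A replicate 1 summit lay inside or within 1000 bp of 183 of the 581 (31.5%, 27.7 to 35.4), against 36.1% of the others. A shared replicate 2 summit lay inside or within 1000 bp of 57 (9.81%, 7.52 to 12.5), against 7.03%. Gene length and spacing, which bear on these shares, were not matched.

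Jasmonate pathway genes stood beside 8 of the peaks. The list, put together from textbook knowledge after the neighbours' names had been seen, matched 39 genes, and 9 of them lay beside a peak, against 2.12% of all coding genes. Because the list was made with the names in view, neither the count nor its contrast with other sets of peaks is evidence on its own. Beside shared intergenic peaks of replicate 2 there were 3 of the 39, against 3.59% of all coding genes, and beside intergenic peaks of replicate 1 only there were 8, against 16.7%. The enzymes of synthesis came first by number. LOX4, a lipoxygenase gene for the entry step, lay 124 bp from a summit at chr1:27310198-27313127 with 954 fragments over 362, a fold of 2.63 (2.47 to 2.80). AOS, the allene oxide synthase gene, lay 136 bp from a summit at chr5:17097078-17099375 with 997 over 501 (1.99, 1.87 to 2.11). The allene oxide cyclase genes AOC2 and AOC3 shared 1 peak at chr3:9407058-9408452 with 166 over 88.5 (1.87, 1.59 to 2.17).

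Later steps of the pathway were also among the neighbours. OPCL1, whose enzyme activates a jasmonate precursor in the peroxisome, had 1420 fragments over 603 at chr1:7102879-7105809, a fold of 2.35 (2.23 to 2.48). ACX1, an acyl-CoA oxidase gene of the same organelle, had 89 over 58.5, a fold of 1.51 (1.22 to 1.86). CYP94B3, which encodes the hydroxylase that turns over active jasmonate, lay 21 bp from a summit at chr3:17974582-17976595 with 1355 over 615 (2.20, 2.09 to 2.32). IAR3, an amidohydrolase gene of hormone conjugates, lay 2 bp from a summit with 93 over 46.7 (1.97, 1.59 to 2.41). Among the 12 JAZ repressor genes, only JAZ7 lay beside one of these peaks. The control background beside the 9 genes ran from 46.7 to 802 fragments with a median of 362, and was at least 5 times the lowest value beside 5 of them. Peaks of 1000 bp or more stood beside 7 of the 9. Although the summits lay outside gene spans, the intervals beside all 9 lay mostly inside coding genes. The shares ran from 55.3% at JAZ7 to 93.3% at LOX4.

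Immune signalling genes were beside 19 of the peaks. Their list was also made after names had been seen and matched 77 genes, of which 19 lay beside a peak, against 2.12% of all coding genes. There were 4 of the 77 beside shared intergenic peaks and 14 beside intergenic peaks of replicate 1 only, against 3.59% and 16.7% of all coding genes. Because the list was made with the names in view, neither the count nor its contrast with those sets is evidence on its own. At the cell surface, SERK4 and SERK5 were joined by LYK5, a chitin receptor gene, with 981 fragments over 698 and a fold of 1.40 (1.32 to 1.50). BIR1, a kinase gene that restrains SERK-dependent defence, had 481 over 387 (1.24, 1.13 to 1.36). RBOHD, the NADPH oxidase gene of the immune oxidative burst, lay 50 bp from a summit at chr5:19400318-19402574 with 1038 over 500 (2.07, 1.95 to 2.20). XLG2, an extra-large G protein gene, had 233 over 96.3 (2.40, 2.11 to 2.73).

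Inside the cell the neighbours included kinases, resistance genes and salicylic acid genes. MEKK1 had 294 fragments over 173 and a fold of 1.70 (1.51 to 1.90), and MPK11, of the mitogen-activated kinases, had 386 over 270 (1.43, 1.29 to 1.58). The resistance genes SNC1, RPP5 and RPS6 had folds of 1.66 (1.45 to 1.89), 1.89 (1.52 to 2.32) and 1.48 (1.32 to 1.65). BON1, a copine gene that holds SNC1 down, had a peak of 3681 bp with 7 summits and 386 fragments over 174 (2.21, 2.00 to 2.44). EDS16, the isochorismate synthase gene of salicylic acid synthesis, had only 74 over 50.2 (1.46, 1.15 to 1.83). NPR3, a salicylic acid receptor gene, had 979 over 658 (1.49, 1.40 to 1.58). WRKY18 had 1452 over 643 at chr4:15383260-15385563 (2.26, 2.14 to 2.37) and WRKY38 had 99 over 46.7 (2.10, 1.71 to 2.55). The remaining members, EDR1, PUB12 and PUB24, had folds between 1.48 and 2.03. Control backgrounds beside the 19 genes ran from 46.7 to 698 fragments with a median of 138, so for this list high and low controls were mixed. Peaks of 1000 bp or more stood beside 5 of the 19, with 77.3% (RBOHD) to 92.2% (WRKY18) of the interval inside coding genes. Beside the other immune genes that share ran from 0% (RPS6) to 86.4% (RPP5).

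**Figure D4:**
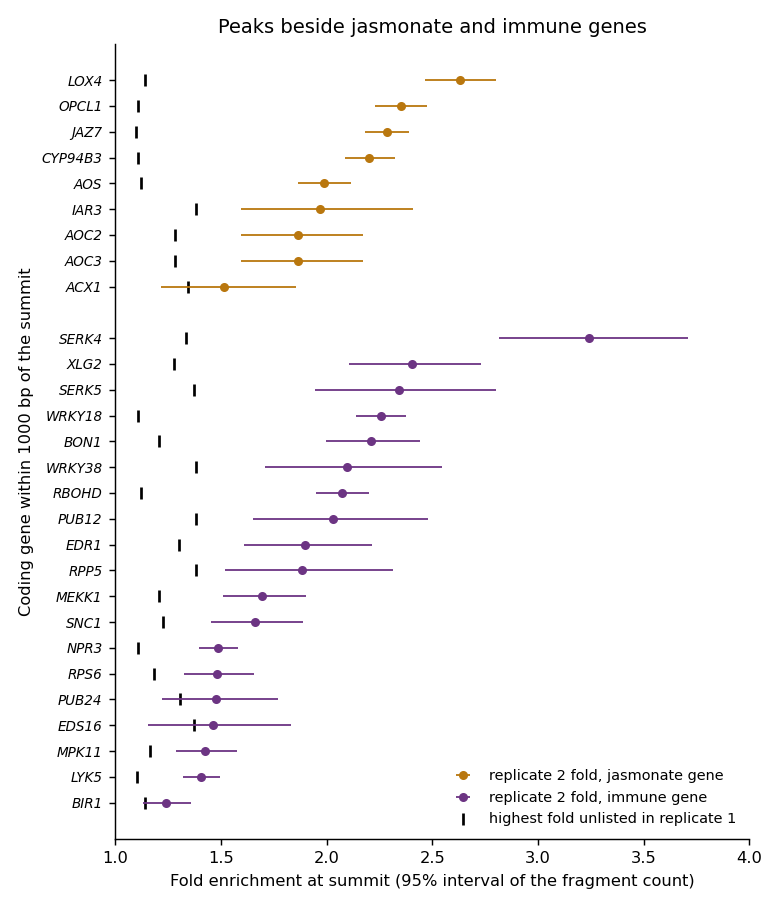
Fold enrichment in replicate 2 at the summit beside 9 jasmonate and 19 immune genes (horizontal), with bars for the 95% interval of the fragment count, and a tick for the highest fold that replicate 1 could have had without a listed peak. The lower end of the bar stays above the tick beside 8 of the 9 jasmonate genes and 16 of the 19 immune genes. The peaks were picked for being listed in replicate 2 only, so this order is partly built in.

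Receptor-like kinases, a class matched by symbol, had 13 of 219 genes beside a peak (5.94%, against 2.12% of all coding genes). They lay beside 12 peaks with a median fold of 1.72 over the genes. Besides the SERK genes they were PERK1, PERK5, PERK9, CRK2, CRK3, CRK14, CRK15, RLP39, LYK5 and the lectin kinase genes AT3G59740 and AT3G59750. RLP39 is a receptor-like protein gene, of a family without a kinase domain. The symbols searched for this class take in that whole family and also beta-amylase genes named BAM, so the 219 genes are not all kinases. The cysteine-rich kinases CRK14 and CRK15 shared a peak with a fold of 1.80, and CRK2 and CRK3 one with 1.60. Expansins and xyloglucan enzymes, which loosen and remodel the cell wall, had 6 of 70 genes (8.57%). XTH18 led them, and XTH7, EXPA5, XTR6, XTH14 and XTH19 had folds between 1.48 and 1.74. Of the 70, 4 lay beside shared intergenic peaks and 17 beside intergenic peaks of replicate 1 only. Calcium sensors and kinases had 4 of 92 (4.35%), namely CPK29, CPK1, TCH3 and CAM2. Of the 92, 7 lay beside shared intergenic peaks and 15 beside intergenic peaks of replicate 1 only. TCH3, a calmodulin-like gene induced by touch, shared a peak with CAM2 that had 2417 fragments over 2061, a fold of 1.17 (1.13 to 1.22).

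Transcription factor classes lay on both sides of the 2.12% of all coding genes, on counts of 0 to 4 genes. They were matched by symbol and synonym, so family genes under other names were not counted. The shares are of matched genes and not of whole families. AP2/ERF had 4 of 72 genes (5.56%), bHLH 1 of 22 (4.55%), WRKY 3 of 72 (4.17%; WRKY18, WRKY38 and TTG2) and C2H2 zinc finger 1 of 31 (3.23%). R2R3 MYB had 2 of 125 (1.60%) and homeobox 1 of 83 (1.20%). In AP2/ERF the matched genes were ERF13 with a fold of 2.49 (2.33 to 2.67), ERF2 with 1.77 (1.60 to 1.96) and CBF4 with 1.27. Also matched was PMT5, a polyol transporter gene caught by a synonym. NAC (103 genes), bZIP (46), DOF (11), B-box (31) and MADS-box (98) had 0. With 2.12% of all coding genes beside a peak, a count of 0 in classes of this size is near the background. Beside shared intergenic peaks the B-box class had 8 of 31 genes and the homeobox class 10 of 83. The WRKY class had 5 of 72 there and the AP2/ERF class 4 of 72.

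Hormone, light and seed classes had between 0 and 5 genes each beside a peak. Clock and light genes had 0 of 40, with 11 beside shared intergenic peaks, and abscisic acid receptors, kinases and factors had 0 of 39, with 3. Gibberellin genes had GA2OX6 (1.53, 1.42 to 1.64) and GA2OX2 (1.48, 1.23 to 1.77), 2 of 29 genes (6.90%), both for enzymes that inactivate the hormone. Cytochrome P450 genes had 5 of 234 (2.14%), close to the share of all coding genes, and included CYP707A1 (1.76, 1.56 to 1.98) and CYP707A3 (1.15, 1.10 to 1.21), whose enzymes break down abscisic acid. PP2C phosphatases matched by symbol had 2 of 28 (7.14%), HAB2 with a fold of 1.61 and AT5G02760 with 1.84. PAPP2C, with a fold of 1.88 at a summit 1 bp away, was missed by that match. Shared intergenic peaks had 3 of the 28 matched PP2C genes and 3 of the 29 gibberellin genes beside them. Light-harvesting genes had 1 of 21 (4.76%), LHCB5 with a fold of 1.76, and 9 of the 21 lay beside shared intergenic peaks. Auxin genes had 2 of 134 (1.49%), ARF18 and AT2G35290. Seed maturation, storage and LEA genes had 1 of 48 (2.08%), the dehydrin-like gene named LEA (2.63). Heat shock genes had 0 of 54. Ribosomal names gave 5 of 66 (7.58%), of which RPP5 and RPS6 are the resistance genes given above, leaving 3 of 64 (4.69%). SDR4-like genes, looked up by locus, had 0 of 3.

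What replicate 1 could have held at these places was bounded from its own list. Its weakest listed peak had a −log10 p of 2.35, and its background at each summit was taken as 0.924 times that of replicate 2. The highest fold replicate 1 could have had while staying unlisted had a median of 1.27 (quartiles 1.19 and 1.36), against the median fold of 1.66 in replicate 2. In 301 of 411 (73.2%) the lower bound of the replicate 2 fold exceeded that limit, and in 104 (25.3%) the fold was at least 1.5 times the limit. The peaks were picked for being listed in replicate 2 and not in replicate 1. Folds above the limit are therefore partly built in, and these shares are no test of a difference between replicates. At AT1G01640 the limit was 178 fragments and a fold of 1.21, and at JAZ7 813 fragments and 1.10. The limit assumes an interval at least as wide as the narrowest one listed, 240 bp, and the caller's default statistics. For the remaining 110 peaks the lower bound of the replicate 2 fold did not exceed the limit. The replicate 1 level was not measured at any of the 411 summits.

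Few peaks lay within 100 bp of a replicate 1 interval or had a summit within 10 bp of a coding gene. The smallest gap to a replicate 1 interval was 27 bp, beside EULS3 with a fold of 1.53, and 3 of the 411 lay within 100 bp of one. Just outside the definition, the smallest overlap was 7 bp, for a peak nearest to AT3G60080 with a fold of 1.47, and 12 shared intergenic peaks overlapped by 100 bp or less. The median gap to replicate 1 was 3729 bp (3081 to 4312), and 350 peaks (85.2%) had no replicate 1 interval within 1000 bp. At the gene edge, 13 of the 411 summits lay within 10 bp of a coding gene, the nearest 1 bp from PAPP2C with a fold of 1.88. On the other side, 17 genic summits of replicate 2 only lay within 10 bp of a span end, the nearest in AT1G72275 with a fold of 2.00. At a wider cut, 155 of the 411 summits (37.7%) lay within 100 bp of a coding gene. Where a shared peak had to have a reciprocal overlap of 50%, the count rose to 803, so it depends on the overlap rule.

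A minority lay far from genes. The 50 peaks over 1000 bp from any coding gene (12.2%, 9.17 to 15.7) compared with 31.5% of shared intergenic peaks and 22.2% of intergenic peaks of replicate 1 only. They had a median control background of 50.4 fragments, against 106 in the 361 nearer peaks, and a similar median fold of 1.66 against 1.67. The highest folds among them, 2.89 and 2.51, were nearest to MAKR6 and to the fatty acid reductase gene FAR1. A peak 2258 bp from DWF4, a brassinosteroid synthesis gene, had 102 fragments over 46.7, a fold of 2.16 (1.76 to 2.62). The 4 most remote, at 54802 to 87724 bp from a coding gene, lay on chromosomes 4 and 5 and had folds of 1.41 to 1.70. The highest background in the set, 4104 fragments, was at a summit 1756 bp from MST1, where the pileup of 4580 gave a fold of 1.12.

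Chromosome 1 held 112, chromosome 2 56, chromosome 3 75, chromosome 4 68 and chromosome 5 100, shares of 27.3%, 13.6%, 18.2%, 16.5% and 24.3%. The corresponding shares of coding genes were 26.1%, 15.7%, 19.9%, 15.2% and 23.1%. Another peak of replicate 2 only lay within 1000 bp of 78 of the 411 (19.0%), and another of the 411 within 10000 bp of 33 (8.03%). XTH18 and XTH19 had a peak each in such a place, and so did CRK14, which lay beside 2 of them.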

How the data were processed

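Peaks were called per induced replicate against the single uninduced control with MACS2 2.2.7.1 from paired-end reads, per the series' design text. Bowtie2 2.3.5.1, SAMtools 1.7, bcl2fastq 2.20 and TAIR10 are named in the submitters' processing notes. No source used here gives read filters, duplicate handling or caller settings. The deposited lists give a score, a fold ratio and −log10 p and q values per summit, with every deposited q-value below 0.1.

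Rows with equal intervals were merged to the summit of highest q. Overlap meant at least 1 bp. Pileup and background were solved from fold, taken as (pileup + 1)/(background + 1), and the upper Poisson tail. On simulated data 180 of 180 summits were recovered. Fold intervals are exact Poisson intervals of the pileup with the background held fixed.

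Coding genes came from a RefSeq table of TAIR10.1, used for names and for which genes lie around a summit. It holds no strand or exons. A motif search was planned and not made, since no sequence was used here. The 26 gene classes were matched by symbol and synonym, so genes of a family under other names were missed. SDR4-like names matched 0 genes and were looked up by locus, and 4 lists were added later. Members, classes and lists were chosen with earlier results of these data known. Named genes lie beside the 10 highest folds, 10 highest q, 5 widest peaks and up to 4 per class by fold. Others were chosen after their values were seen. The authors' IDR table was not used here, because it covers matched regions. Intervals and medians were computed with scipy 1.17.1 and numpy 2.4.6 in Python 3.11.15, tables with pandas 2.3.3 and plots with matplotlib 3.10.9.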

Additional observations from a re-analysis of the deposited data

How the results depend on the processing

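The count of 411 peaks, the share of 87.8% within 1000 bp of a coding gene, the median fold of 1.66, the median width of 383 bp and the 581 neighbouring genes were recomputed under 10 other settings and 1 more chosen after seeing the data. In 21 of 49 values the change stayed within 1.5 times for counts or within the 95% interval of the main value otherwise. With a reciprocal overlap of 50% the values were 803 peaks, 81.2%, 1.74, 337 bp and 962 genes. With −log10 q of at least 5 they were 260 peaks, a fold of 1.85, 464 bp and 382 genes. With a fold of at least 2 they were 91 peaks, 82.4%, 2.25, 612 bp and 126 genes. Without replicate 1, all 1496 intergenic peaks of replicate 2 gave 73.8%, 1.84, 349 bp and 1546 genes, and without replicate 2 no value can be had. Using midpoints the median width was 351.5 bp, and with every summit kept it was 437.5 bp. Within 500 bp the share was 82.2% and within 2000 bp 93.7%. The setting added later kept the 77 peaks with a control background within 5% of the lowest, with 67.5%, 1.76, 318 bp and 84 genes. No paired analysis was possible because only the induced group has peak lists and no test was made. Peaks of 1 replicate carry no replicate error, and their intervals cover fragment counting only.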
